A study of Mus musculus with 12 samples.

Results

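The NADPH oxidase subunits described here are 6 of the 21930 genes in the deposited count table of mouse eye tissue, taken by gene name: Cybb, Cyba, Ncf1, Ncf4, Rac2 and Nox4. The first 5 encode the phagocyte oxidase NOX2 and its partners, and Nox4 encodes a separate oxidase. The study asked whether intermittent fasting limits the retinal damage caused by sodium iodate (NaIO3), an oxidant that injures the retinal pigment epithelium (RPE), and RNA-seq was done on 12 libraries in 4 groups of 3. All mice were male, wild type C57BL/6J and 8 weeks old when a diet of 12 weeks began. AL + PBS mice were fed ad libitum and received an intraperitoneal injection of PBS. IF + PBS mice were fasted on alternate days and received PBS. AL + NaIO3 mice were fed ad libitum and received NaIO3 once at 25 mg/kg. IF + NaIO3 mice were fasted on alternate days and received the same dose. Eyes were taken 7 days after the injection. No transgene or knockout was used, and the toxin was given systemically rather than into the eye.

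NOX2 is a membrane enzyme of neutrophils, macrophages and microglia that passes electrons from NADPH to oxygen and so makes superoxide. Its catalytic chain gp91phox (Cybb) is stable only when bound to p22phox (Cyba), and the enzyme is silent until cytosolic subunits (among them p47phox from Ncf1 and p40phox from Ncf4) and a Rac GTPase join it at the membrane. Nox4 also binds p22phox but needs none of the cytosolic subunits, makes mostly hydrogen peroxide, and is expressed in endothelial, mesenchymal and epithelial cells.

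RefSeq promoter windows of GRCm38.p6, from 250 bases before to 50 bases after the transcription start, were matched for 4 of the 6 genes (Cybb, Cyba, Ncf1 and Nox4). The sequences of both membrane subunits of NOX2 and of Nox4 are shown because Cybb and Cyba were high in all 3 AL + NaIO3 libraries and Nox4 was not. Each is written on the strand of its gene, and capitals mark a match to one of the motifs searched. Cybb lies on the minus strand with its window at chrX:9469275-9469574, Cyba on the minus strand at chr8:122432891-122433190, and Nox4 on the plus strand at chr7:87246399-87246698. The windows of Cybb and Nox4 lie inside the intervals listed for these genes in the count table rather than at their 5′ ends, so the start site used for them is not the outermost one.
Cybb: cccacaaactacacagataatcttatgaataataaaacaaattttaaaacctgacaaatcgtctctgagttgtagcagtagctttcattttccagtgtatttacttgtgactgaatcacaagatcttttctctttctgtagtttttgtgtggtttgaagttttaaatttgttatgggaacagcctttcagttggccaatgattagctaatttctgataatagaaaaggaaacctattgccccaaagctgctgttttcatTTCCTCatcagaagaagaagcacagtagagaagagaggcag
Cyba: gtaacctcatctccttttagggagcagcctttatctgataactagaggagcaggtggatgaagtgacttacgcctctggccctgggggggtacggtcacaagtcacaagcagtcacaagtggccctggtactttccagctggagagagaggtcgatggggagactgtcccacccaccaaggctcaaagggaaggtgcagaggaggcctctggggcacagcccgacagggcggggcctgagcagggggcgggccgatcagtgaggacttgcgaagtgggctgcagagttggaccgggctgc
Nox4: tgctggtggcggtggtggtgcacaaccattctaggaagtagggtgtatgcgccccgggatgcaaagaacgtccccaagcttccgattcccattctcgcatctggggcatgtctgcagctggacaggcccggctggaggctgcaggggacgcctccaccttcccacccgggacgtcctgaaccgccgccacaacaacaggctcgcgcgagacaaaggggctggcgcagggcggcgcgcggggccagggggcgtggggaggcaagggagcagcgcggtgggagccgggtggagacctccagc

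The windows differ in base composition. That of Cybb was 35.3% G and C, that of Ncf1 54.0%, that of Cyba 60.7% and that of Nox4 68.3%, beside a median of 52.7% over 32851 promoters. GAGGAA, a core bound by ETS factors such as PU.1, was found on either strand in 28.3% of promoters and in that of Cybb, where it is read as TTCCTC on the printed strand from base 10 after the start. The AP-1 motif TGACTCA, held by 5.20% of promoters, and the antioxidant response motif TGACNNNGC, held by 12.4%, were found in none of the 4 windows. GAGGAA is not part of either of the other motifs. A match describes the letters only and is no evidence of binding.

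The genes lie on 5 chromosomes, and Ncf4 and Rac2 share chromosome 15. In the coordinates of the deposited table, which fit GRCm38, Cybb (ENSMUSG00000015340) is at chrX:9435252-9487771, Cyba (ENSMUSG00000006519) at chr8:122424776-122432930 and Ncf1 (ENSMUSG00000015950) at chr5:134220053-134229625. Ncf4 (ENSMUSG00000071715) is at chr15:78244801-78262580, Rac2 (ENSMUSG00000033220) at chr15:78559167-78572783 and Nox4 (ENSMUSG00000030562) at chr7:87246096-87398710. The 3′ part of Ncf1 overlaps Gtf2ird2 by 4303 bases. Gtf2ird2 had between 1204 and 1803 counts in every library, against 32 to 425 for Ncf1, and since it is not stated whether strand was used in counting, some reads of one may have been given to the other. Cyba lies inside the interval listed for Galnt2l, which had 0 counts in all 12 libraries.

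The libraries held between 26364665 and 43046950 counts. At this depth 3 counts, taken here as the floor of detection, correspond to between 0.0709 and 0.107 CPM (counts relative to the TMM-scaled library total), and the members below about 1 CPM rest on few reads. The labels name the tissue as RPE, choroid and sclera, and the methods name eye cups. The 12 photoreceptor markers summed to between 20460 and 66780 CPM and the 11 RPE markers to between 1415 and 3086 CPM, so photoreceptor RNA was present in every library. Replicate 3 of AL + NaIO3 stood apart from the rest: it had the lowest photoreceptor sum (20460 CPM, against 39060 and 66780 CPM in replicates 2 and 1) and the highest stromal sum (1606 CPM, against 138 to 295 CPM in the other 11 libraries). The log2 fold changes of the members in the comparisons that use it are also given without it, as are those of the gene that leads each marker or pathway list named, and the latter choice was made after seeing the data.

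Among the 5 phagocyte subunits, transcript levels per length were unequal in every group. On the FPKM scale, which divides counts by gene length and depth, Cyba was at 6.58 ± 0.823 FPKM (SD, n = 3) in AL + PBS. Ncf1 was at 0.559 ± 0.102 FPKM and Cybb at 0.285 ± 0.137 FPKM in the same libraries. Ncf4 (0.186 ± 0.176 FPKM), Rac2 (0.173 ± 0.0176 FPKM) and Nox4 (0.129 ± 0.0519 FPKM) were lower still, and these 3 did not differ from one another beyond their spread. Cyba therefore made up between 79.8% and 87.5% of the summed FPKM of the 5 subunits in AL + PBS, and between 74.8% and 93.3% over the 12 libraries. The catalytic chain Cybb made up 2.41% to 6.26% in AL + PBS, 0.689% to 1.83% in IF + PBS, 4.52% to 9.95% in AL + NaIO3 and 1.88% to 2.63% in IF + NaIO3. For Ncf4 and Nox4 the length implied by the deposited FPKM varied between libraries by 2.79-fold and 2.15-fold. It varied by 1.32-fold for Ncf1, 1.17-fold for Rac2, 1.07-fold for Cybb and 1.04-fold for Cyba. Differences between libraries are therefore read from counts only, and the FPKM of Ncf4 and Nox4 beside those of the other genes are approximate.

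**Figure D1:**
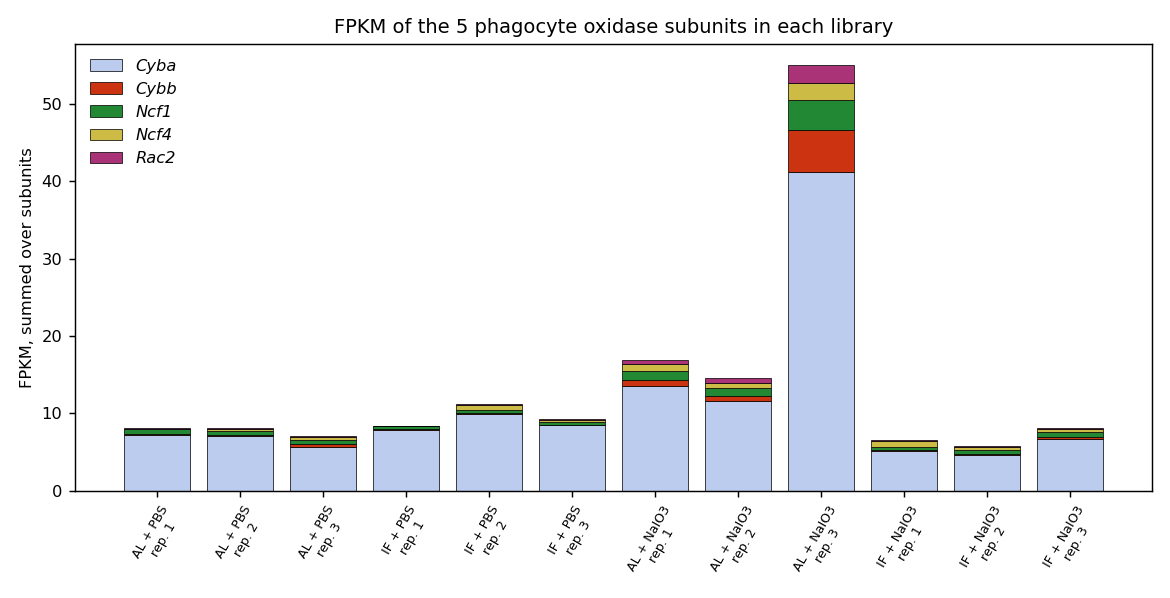
FPKM (vertical axis) of Cyba, Cybb, Ncf1, Ncf4 and Rac2 stacked for each of the 12 libraries. Cyba is the largest share of every bar, and the sum runs from 5.72 to 11.2 FPKM outside AL + NaIO3 and from 14.6 to 55.0 FPKM within it.

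Levels of Cybb, the catalytic chain, in AL + PBS were 1.16, 1.28 and 2.56 CPM in replicates 1, 2 and 3, and in IF + PBS 0.896, 0.586 and 0.372 CPM. After NaIO3 they were 4.69, 3.62 and 27.3 CPM on the AL diet and 1.04, 0.799 and 0.896 CPM on the IF diet. Each AL + NaIO3 library was above all 9 others, replicate 3 was 5.82 times the next one, and the IF + PBS libraries were below every AL + PBS library. In counts, the 3 AL + NaIO3 libraries had 146, 102 and 1015 reads, and no library outside this group had more than 78.

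Cyba, the membrane partner shared by Cybb and Nox4, was present at 6.38, 6.42 and 5.08 CPM in AL + PBS and at 6.98, 8.85 and 7.47 CPM in IF + PBS. The levels were 13.0, 9.81 and 32.2 CPM in AL + NaIO3 and 4.78, 4.49 and 6.17 CPM in IF + NaIO3. The AL + NaIO3 libraries were again the highest, and here the IF diet gave the opposite order within the PBS groups from that of Cybb, since all 3 IF + PBS libraries lay above all 3 AL + PBS libraries. Among fasted mice, every NaIO3 library lay below every PBS library.

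Ncf1 encodes p47phox, the organiser whose phosphorylation starts assembly. It was at 2.34, 1.96 and 1.47 CPM in AL + PBS and at 1.02, 1.37 and 1.15 CPM in IF + PBS. It was at 4.14, 2.95 and 11.4 CPM in AL + NaIO3 and at 1.5, 1.74 and 1.79 CPM in IF + NaIO3. The AL + NaIO3 libraries did not overlap any other group, and the lowest group was IF + PBS.

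Ncf4 encodes p40phox, which binds phosphatidylinositol 3-phosphate on phagosomes, and it was close to the limit of detection. It had 0, 16 and 15 counts in AL + PBS, 0, 31 and 13 in IF + PBS, 41, 24 and 113 in AL + NaIO3 and 18, 26 and 17 in IF + NaIO3. A count of 0 in replicate 1 of both PBS groups allows a level of up to 0.0962 and 0.0960 CPM, a limit that covers counting error only. The AL + NaIO3 libraries were above those of AL + PBS and IF + NaIO3 on the CPM scale, while the range of IF + PBS reached into theirs.

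Rac2 is the Rac GTPase of blood cells that activates NOX2. Its counts were 18, 30 and 19 in AL + PBS, 9, 18 and 4 in IF + PBS, 66, 68 and 270 in AL + NaIO3 and 17, 18 and 15 in IF + NaIO3. In CPM the AL + NaIO3 libraries were at 2.12, 2.42 and 7.25, and the other 9 lay between 0.124 and 0.709. The 3 IF + NaIO3 libraries were the least scattered, at 0.501 ± 0.0144 CPM (SD, n = 3).

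Nox4 did not follow the phagocyte subunits in all 3 AL + NaIO3 libraries. It had 19, 16 and 13 counts in AL + PBS, 9, 14 and 20 in IF + PBS, 2, 27 and 114 in AL + NaIO3, and 30, 24 and 10 in IF + NaIO3. The highest and the lowest of the 12 libraries were both AL + NaIO3 libraries, at 3.06 CPM in replicate 3 and 0.0642 CPM in replicate 1, so this group overlapped all others. The 2 counts of replicate 1 are under the floor of 3 counts, which is 0.0963 CPM in that library. Replicates 2 (0.959 CPM) and 3 were above every library of the other groups, the highest of which was IF + NaIO3 replicate 1 at 0.863 CPM.

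**Figure D2:**
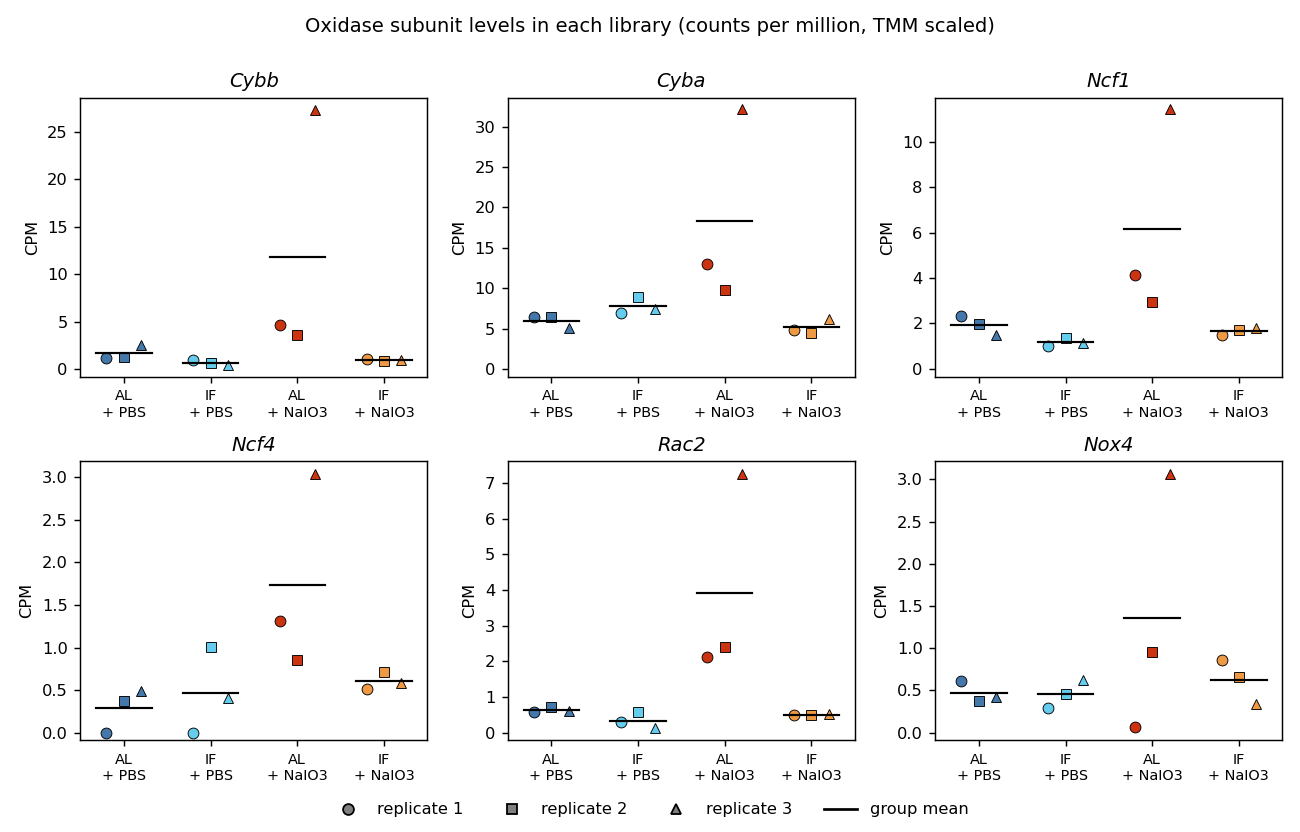
CPM (vertical axis, linear, TMM scaled, a separate scale for each gene) of the 6 genes in each library, by group; symbols mark replicates 1 to 3 and lines the group means. The 3 AL + NaIO3 libraries lie above those of AL + PBS and IF + NaIO3 for Cybb, Cyba, Ncf1, Ncf4 and Rac2, and on both sides of them for Nox4.

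NaIO3 was compared with PBS on the AL diet to ask how the oxidant changed these genes 7 days later. The 5 phagocyte subunits were higher after NaIO3, with no overlap between the groups, and Nox4 was not separated. Between group means the level of Cybb was 7.14 times that in AL + PBS, and 2.50 times when AL + NaIO3 replicate 3 was left out. For Cyba the ratio was 3.07 (1.91 without that library), and for Nox4 2.89 (1.09 without it). Fitted log2 fold changes were 2.85 ± 0.81 (SE) for Cybb, 2.63 ± 0.57 for Rac2, 2.57 ± 0.98 for Ncf4, 1.69 ± 0.54 for Ncf1, 1.63 ± 0.43 for Cyba and 1.55 ± 1.02 for Nox4, with n = 3 in each group. Without AL + NaIO3 replicate 3 they were 1.33 for Cybb, 1.82 for Rac2, 1.88 for Ncf4, 0.88 for Ncf1, 0.93 for Cyba and 0.11 for Nox4. Nox4 was at 2.09 without AL + NaIO3 replicate 1, where it had 2 counts.

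None of these differences passed the test over all genes. In edgeR's quasi-likelihood test, with Benjamini-Hochberg adjustment over 15612 genes, an adjusted p under 0.05 with a fold of at least 1.5 was reached by 0 of the 6 members and by 0.0769% of genes. The smallest adjusted p among the members was 0.240 for Rac2 and the largest 0.641 for Nox4. It was 0.284 for Cyba, 0.306 for Cybb, 0.340 for Ncf1 and 0.439 for Ncf4. An unadjusted p under 0.05 was reached in the edgeR fit by 5 of 6 members, all but Nox4, beside 10.2% of genes. The 5 members whose groups did not overlap, all higher, compare with 9.8% of genes. DESeq2 called 3 of 6 members (Rac2, adjusted p = 0.000941, Cybb, adjusted p = 0.00306, and Cyba, adjusted p = 0.00796) and 2.53% of genes. An edgeR fit to all 12 libraries called 1, Rac2 at an adjusted p of 0.0484, and 1.11% of genes. For a single gene the exact permutation test of 3 against 3 libraries cannot give a p below 0.1.

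IF + NaIO3 was compared with AL + NaIO3 to ask whether the diet altered the response. All 6 genes had lower mean levels in the fasted mice, and the 5 phagocyte subunits did not overlap. The log2 fold change was -3.71 ± 0.80 (SE, n = 3 in each group) for Cybb, a level 13.1 times lower in the fit, and -2.97 ± 0.58 for Rac2. It was -1.89 ± 0.53 for Ncf1, -1.84 ± 0.44 for Cyba and -1.52 ± 0.58 for Ncf4. For Nox4 it was -1.14 ± 1.02, -1.68 without AL + NaIO3 replicate 1, and 0.29 without AL + NaIO3 replicate 3, which turns its direction. Without the same library Cybb was at -2.20 with an edgeR adjusted p of 0.0480, which passes the threshold it misses with all 6 libraries. Rac2 was then at -2.18, Cyba at -1.16, Ncf1 at -1.09 and Ncf4 at -0.84, all below 0.

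By edgeR over 15648 genes 0 of 6 members and 0.0383% of genes were called, and the adjusted p of the members lay between 0.168 (Rac2) and 0.677 (Nox4). It was 0.191 for Cybb, 0.226 for Cyba, 0.269 for Ncf1 and 0.379 for Ncf4. The same 5 members, all but Nox4, and 11.7% of genes had an unadjusted p under 0.05. The groups of 5 members did not overlap with the fasted mice lower, as for 10.2% of genes. DESeq2 called 4 members: Cybb (adjusted p = 4.07e-06), Rac2 (0.000147), Cyba (0.00122) and Ncf1 (0.0169). It called 2.94% of genes. The edgeR fit to 12 libraries called 3 (Cybb, Cyba and Rac2, with adjusted p of 0.0238, 0.0287 and 0.0293) and 1.19% of genes. This comparison and the one above use the same 3 AL + NaIO3 libraries, so a high library in that group enlarges both.

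**Figure D3:**
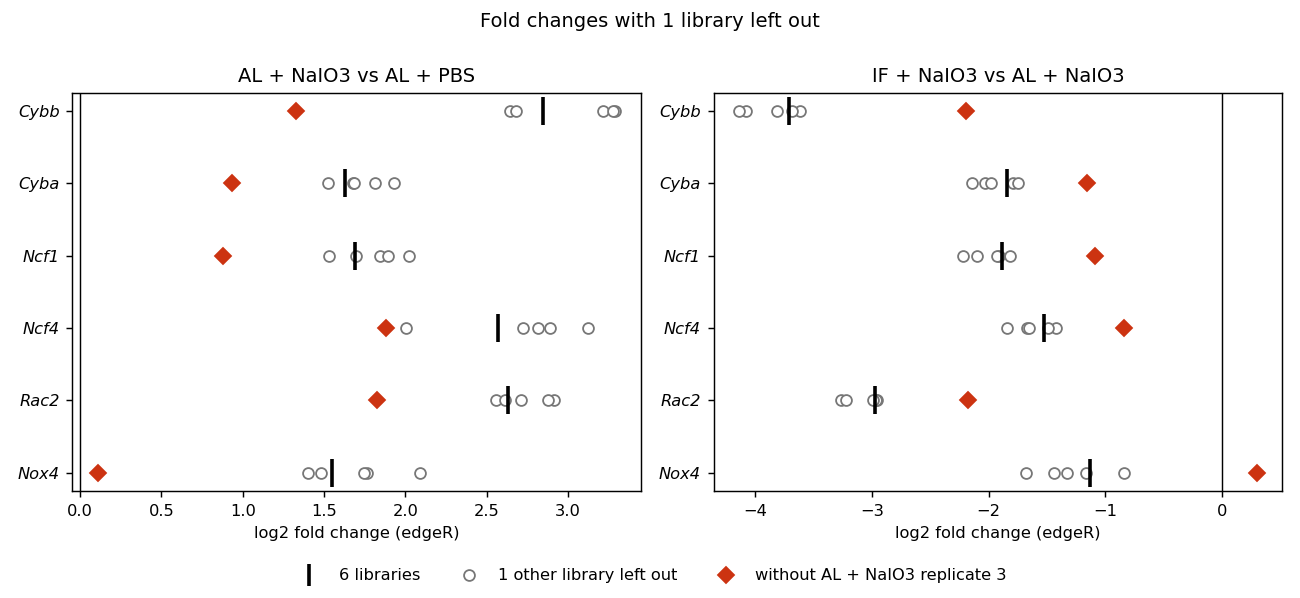
log2 fold change from edgeR (horizontal axis) of each gene in both comparisons that use AL + NaIO3, with all 6 libraries (bars) and with 1 library left out (open circles, or diamonds where it is AL + NaIO3 replicate 3). Leaving out that replicate brings every gene closer to 0, and takes Nox4 past it in the comparison of diets.

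Without NaIO3 the diet comparison, IF + PBS against AL + PBS, gave smaller and mixed differences. Cybb was lower in the fasted mice at a log2 fold change of -1.42 ± 0.49 (SE, n = 3 in each group), with an adjusted p of 0.217 by edgeR. Ncf1 was also lower, at -0.70 ± 0.34, and Cyba higher, at 0.38 ± 0.19, and neither of these overlapped between groups. The 2 members lower without overlap, Cybb and Ncf1, compare with 11.6% of genes, and the 1 higher, Cyba, with 10.3%. Rac2 (-0.93 ± 0.60), Ncf4 (0.68 ± 1.14) and Nox4 (-0.04 ± 0.54) overlapped, and Ncf4 was at -0.52 without IF + PBS replicate 2. With 1 library left out Rac2 ran from -1.61 (without IF + PBS replicate 2) to -0.53 (without IF + PBS replicate 3), and Nox4 from -0.32 (without IF + PBS replicate 3) to 0.20 (without IF + PBS replicate 1). Both edgeR fits called 0 of the 6 members and 0% of genes, and 1 member, Cybb, beside 17.1% of genes had an unadjusted p under 0.05. DESeq2 called 0 members and 1.17% of genes, with an adjusted p of 0.137 for Cybb, and gave none for Ncf4, Rac2 and Nox4. Stromal markers were also lower in IF + PBS: 10 of 12 had a lower mean and 7 an unadjusted p under 0.05 by edgeR (median log2 fold change -0.60). Their part in the differences of the members was not tested.

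NaIO3 in fasted mice, IF + NaIO3 against IF + PBS, was compared to ask what the oxidant did under fasting. Here Cyba was lower after the injection, at a log2 fold change of -0.59 ± 0.21 (SE, n = 3 in each group) with no overlap and an adjusted p of 0.250 by edgeR. Ncf1 was higher with no overlap, at 0.51 ± 0.34. Groups were apart in this way, lower after NaIO3, for 10.7% of genes and, higher, for 10.2%. Rac2 (0.59 ± 0.64), Cybb (0.56 ± 0.48), Nox4 (0.46 ± 0.56) and Ncf4 (0.37 ± 0.88) overlapped, and Ncf4 was at -0.21 without IF + PBS replicate 1 and at 1.56 without IF + PBS replicate 2. With 1 library left out Rac2 ran from 0.20 (without IF + PBS replicate 3) to 1.27 (without IF + PBS replicate 2), Cybb from 0.30 (without IF + PBS replicate 3) to 0.93 (without IF + PBS replicate 1) and Nox4 from 0.15 (without IF + NaIO3 replicate 1) to 0.75 (without IF + PBS replicate 3). Both edgeR fits called 0 members and 0% of genes, and 1 member, Cyba, beside 15.2% of genes had an unadjusted p under 0.05. DESeq2 gave none of the members an adjusted p here. RPE markers were lower in the same comparison: all 11 had a lower mean after NaIO3 and 7 an unadjusted p under 0.05 by edgeR (median log2 fold change -0.60). Their part in the difference of Cyba was not tested.

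The interaction of diet and injection tests whether the NaIO3 difference itself differed between diets. Cyba gave the smallest p of the members. Its difference was 1.63 on AL and -0.59 on IF, with the 3 NaIO3 libraries above PBS on one diet and below it on the other, and the interaction was -2.21 ± 0.50 on the log2 scale (SE, 12 libraries). It ranked 62 of 15970 genes by p, and the edgeR adjusted p was 0.182. Without AL + NaIO3 replicate 1 the interaction of Cyba was -2.42 with an edgeR adjusted p of 0.0389, and over all single libraries left out the adjusted p ran from 0.0389 to 0.474. Cybb was at -2.27 ± 0.96 (adjusted p = 0.389), Rac2 at -2.02 ± 0.82 (adjusted p = 0.375), Ncf4 at -2.19 ± 1.5 (adjusted p = 0.555), Ncf1 at -1.17 ± 0.62 (adjusted p = 0.458) and Nox4 at -1.07 ± 1.24 (adjusted p = 0.736), from the same edgeR fit. Without AL + NaIO3 replicate 3 the interaction was -1.53 for Cyba, -1.52 for Ncf4, -1.24 for Rac2, -0.77 for Cybb, -0.38 for Ncf1 and 0.34 for Nox4, whose direction turned, and the edgeR adjusted p of Cyba was then 0.0622. Ncf4 was at -0.999 without IF + PBS replicate 2 and Nox4 at -1.64 without AL + NaIO3 replicate 1. By edgeR 0 of 6 members and 0.0313% of genes passed an adjusted p under 0.05, and 3 members (Cyba, Rac2 and Cybb) and 12% of genes an unadjusted one. DESeq2 called 1, Cyba, with an adjusted p of 0.00380, and 1.22% of genes.

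**Figure D4:**
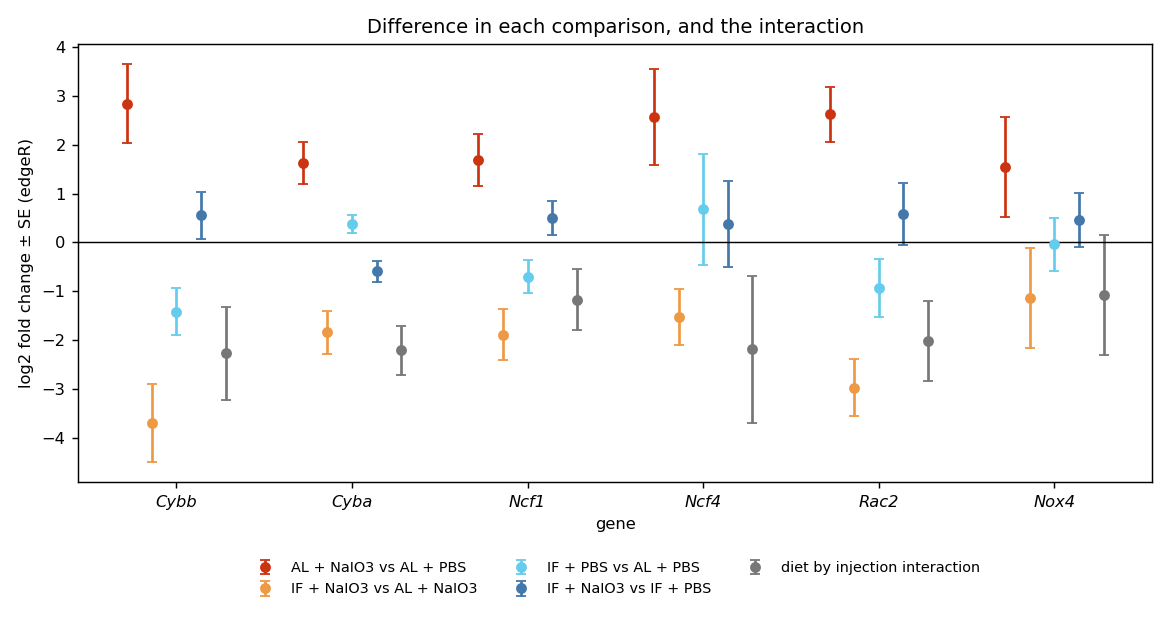
log2 fold change with its SE (vertical axis, edgeR) of the 6 genes in the 4 comparisons, and the diet by injection interaction, by colour. The AL + NaIO3 against AL + PBS points are all above 0 and those of IF + NaIO3 against AL + NaIO3 all below 0, while Cyba is the one gene whose fitted difference on the IF diet is below 0 after NaIO3.

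The levels of markers of macrophages and microglia, the main cells of the eye that make NOX2, moved with the subunits. In bulk tissue more such cells and more RNA of a gene per cell cannot be told apart. The 16 markers, among them Aif1, Csf1r and C1qa, summed to 92.1 to 105 CPM in AL + PBS, 80.5 to 106 in IF + PBS, 226 to 1238 in AL + NaIO3 and 84.3 to 104 in IF + NaIO3. None of the 16 was at 0 in all libraries of a group. Of them 14 were higher and 0 lower in AL + NaIO3 than in AL + PBS at an unadjusted p under 0.05 by edgeR, with a median log2 fold change of 2.40 beside 0.01 over all genes tested, and 14 were lower in IF + NaIO3 than in AL + NaIO3 (median -2.46, beside -0.01). At that p stood 10.2% and 11.7% of all genes. Without AL + NaIO3 replicate 3 the medians were 1.70 and -1.73. The largest difference was in Lyz2, the lysozyme of myeloid cells, at 3.96 ± 1.06 and -4.69 ± 1.08, and without that library it was at 1.55 and -2.29 with edgeR adjusted p of 0.0233 and 0.00229. The median of the 6 members was 2.13 and -1.87 in these comparisons, and 1.13 and -1.12 without that library. The part of cell number in the differences of the subunits was not tested.

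When each member was set against the mean log2 CPM of these 16 markers in the same library, the difference of Cybb between AL + NaIO3 and AL + PBS was smaller. Cybb minus the markers was -0.68 ± 0.68 (SD, n = 3) in AL + NaIO3 and -0.99 ± 0.61 in AL + PBS, a difference of 0.31 with p = 0.5 in an exact two-sided permutation test. Without AL + NaIO3 replicate 3 this difference was -0.079. Against IF + NaIO3, at -1.71 ± 0.12, it was 1.03 higher with no overlap (exact permutation p = 0.1, the smallest that 3 against 3 libraries can give), and 0.64 higher without that replicate. Cyba relative to the markers was lower in AL + NaIO3, at 0.36 ± 0.03, than in AL + PBS, at 0.90 ± 0.21, and than in IF + NaIO3, at 0.71 ± 0.37 (exact permutation p = 0.1 for each). Ncf1 was 0.53 lower than in AL + PBS on this scale (exact permutation p = 0.1) and Rac2 0.34 higher (exact permutation p = 0.2). Ncf4 was 0.72 higher (exact permutation p = 0.9) and Nox4 stood at -1.47 against AL + PBS (exact permutation p = 0.2). Ncf4 turned to -0.23 without AL + PBS replicate 1, where it had 0 counts, and Nox4 was at -0.36 without AL + NaIO3 replicate 1, where it had 2. Against IF + NaIO3 Rac2 was 0.61 higher (exact permutation p = 0.1), Ncf1 stood at -0.38 (exact permutation p = 0.2), and Ncf4 stood at -0.74 and Nox4 at -1.80 (exact permutation p = 0.1 for both), or -0.69 for Nox4 without AL + NaIO3 replicate 1. Other values that moved by over 1.5 times with 1 library left out were those of Cyba against IF + NaIO3 (-0.35, and -0.14 without IF + NaIO3 replicate 3), Ncf1 against AL + PBS (-0.33 without AL + PBS replicate 1) and Rac2 against AL + PBS (0.22 without AL + NaIO3 replicate 2). After NaIO3 on the AL diet the means of Cyba, Ncf1 and Nox4 were thus below their AL + PBS means on this scale and that of Rac2 above, while that of Cybb was above only with AL + NaIO3 replicate 3 included and that of Ncf4 only with AL + PBS replicate 1. The difference between these genes was not tested.

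**Figure D5:**
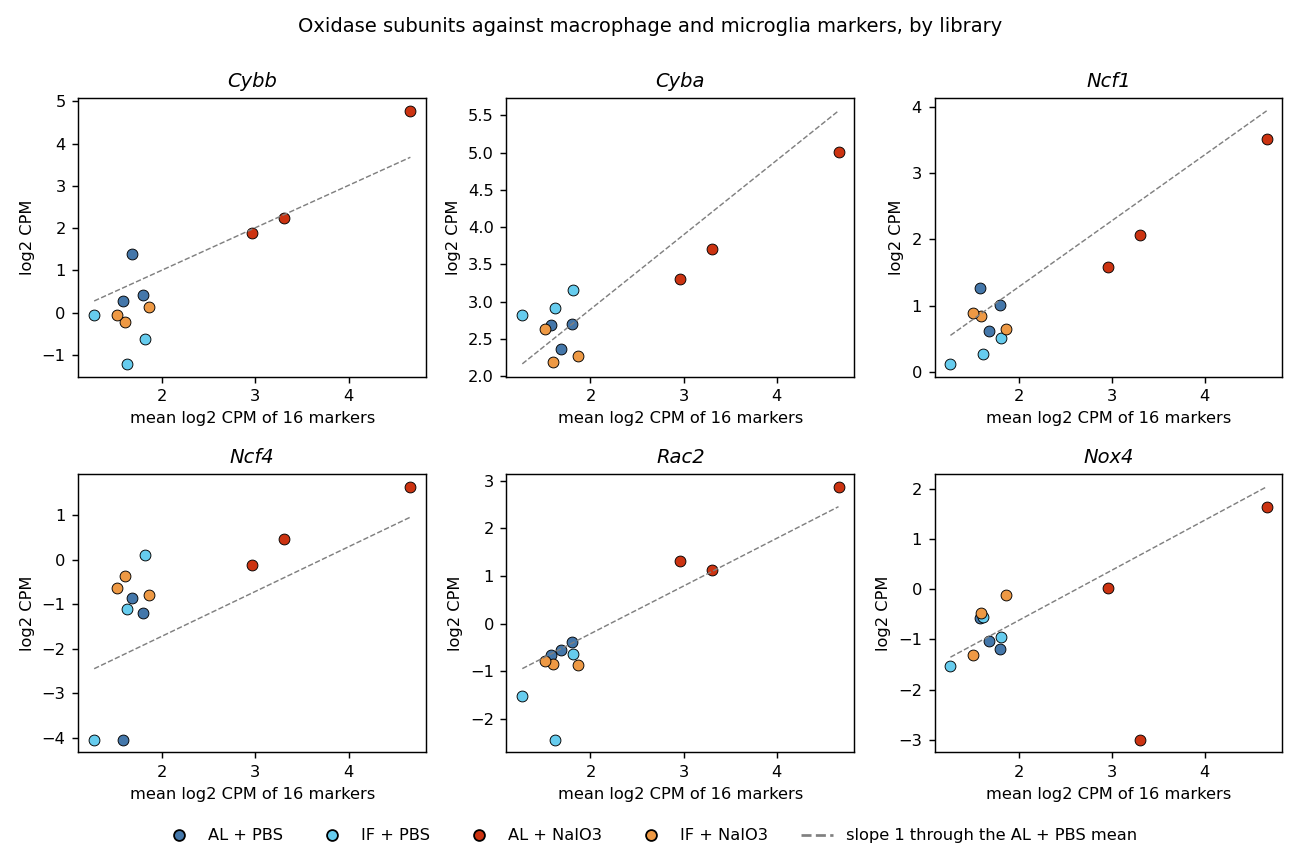
log2 CPM of each gene (vertical axis) against the mean log2 CPM of 16 macrophage and microglia markers (horizontal axis) in the 12 libraries, with a line of slope 1 through the AL + PBS mean. In AL + NaIO3 all 3 libraries lie to the right, Cyba, Ncf1 and Nox4 lie below the line, and Cybb of replicate 3 lies above it.

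Markers of other cells that could carry these genes were read in the same way. The 12 neutrophil markers summed to 2.29 to 2.88 CPM in AL + PBS, 2.11 to 4.49 in IF + PBS, 4.85 to 7.93 in AL + NaIO3 and 1.59 to 3.61 in IF + NaIO3, and Ly6g and Elane were at 0 in every AL + NaIO3 library. Only 2 of them passed the filter in AL + NaIO3 against AL + PBS, the receptor Csf3r (log2 fold change 1.87 ± 0.43, and 1.57 without AL + NaIO3 replicate 3) and S100a9 (0.48 ± 0.65, and 0.87 without that library). Csf3r made up 1.28 CPM of the sum in AL + PBS and 4.66 CPM in AL + NaIO3 on average, and each of the others had means between 0 and 0.532 CPM in these groups. In IF + NaIO3 against AL + NaIO3 4 were tested, 2 higher and 2 lower in the mean (median 0.20), and 1, Csf3r, was lower at an unadjusted p under 0.05 by edgeR. Without AL + NaIO3 replicate 3, 3 were tested, 1 higher and 2 lower, and the median turned to -0.68. The 12 lymphocyte markers summed to 1.91 to 2.92, 2.56 to 3.22, 5.87 to 16.4 and 1.93 to 2.30 CPM in AL + PBS, IF + PBS, AL + NaIO3 and IF + NaIO3, and 3 of 6 tested were higher in AL + NaIO3 than in AL + PBS at an unadjusted p under 0.05, beside 10.2% of all genes, with the kinase Lck at 2.69 ± 0.66 (2.35 without AL + NaIO3 replicate 3). In IF + NaIO3 against AL + NaIO3 5 of 6 lymphocyte markers tested were lower at that p, beside 11.7% of all genes, with a median log2 fold change of -2.83. The 10 endothelial markers (299 to 308, 289 to 300, 346 to 633 and 278 to 326 CPM in the same order) and the 12 stromal markers (229 to 276, 138 to 177, 189 to 1606 and 183 to 209 CPM) were highest in the library in which Nox4 was highest, AL + NaIO3 replicate 3. Vwf led the endothelial list at a log2 fold change of 1.45 ± 0.48 and Lum the stromal list at 2.74 ± 1.21, and without that library they were at 0.65 and -0.50. In AL + NaIO3 against AL + PBS all 10 endothelial markers had a higher mean, 4 of them at that p beside 10.2% of all genes (median 0.84, and 0.28 without that library, when 2 were). All 12 stromal markers had a higher mean, 2 at that p (median 1.12, and -0.17 without that library). With the diets compared after NaIO3, 10 of 12 stromal markers were lower at an unadjusted p under 0.05 by edgeR (median -1.77, and -0.52 without that library, when 3 were). Of 10 endothelial markers 1 was (median -0.57, and -0.12 without that library, when 1 was), a share near the 11.7% of all genes. Their part in the level of Nox4 was not tested.

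Markers of the tissue itself were also set beside the members. Of 11 RPE markers, 5 were lower and 0 higher in AL + NaIO3 than in AL + PBS at an unadjusted p under 0.05 by edgeR (median log2 fold change -0.12), beside 10.2% of all genes, and 8 were lower (median -0.83) when AL + NaIO3 replicate 3 was left out. The 12-library fit called 3 lower, beside 1.11% of genes: Rgr at -1.46, Rpe65, the isomerase of the visual cycle, at -1.30 and Rdh5 at -1.07. On 6 libraries these were at -1.45, -1.29 and -1.06, and without replicate 3 at -1.53, -1.39 and -1.24. In IF + NaIO3 against AL + NaIO3, 3 RPE markers were higher and 2 lower at that p (median 0.09), beside 11.7% of all genes, and without AL + NaIO3 replicate 3 it was 5 higher and 0 lower (median 0.54). Pmel, a pigment granule protein, had the largest difference in AL + NaIO3 against AL + PBS, at 1.97 ± 1.08, and was at -0.83 without replicate 3. Of 12 photoreceptor markers 10 had a lower mean in AL + NaIO3 than in AL + PBS, 0 of them at that p (median -0.51, and -0.21 without replicate 3), and Nrl was at -0.69 ± 0.42, or -0.33 without replicate 3. In IF + NaIO3 all 12 had a higher mean than in AL + NaIO3, 1 of them at that p (median 0.49, and 0.17 without replicate 3, when 9 were higher).

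The other genes of the oxidase were read from lists of pathway members. Of the further subunits and paralogs, Rac1, the widely expressed Rac, was between 125 and 167 CPM in every library, far above Rac2 per length (27.8 FPKM against 0.173 FPKM in AL + PBS), with a log2 fold change of 0.11 ± 0.13. Rac3 (-0.12), Nox1 (0.09) and Noxo1, the organiser of Nox1 (0.22), differed little. Without AL + NaIO3 replicate 3 these were at -0.26, -0.15 and 0.03, so the direction of Nox1 turned. Duox1 passed the filter only with the diets compared after NaIO3 (-1.13, edgeR adjusted p = 0.558). Noxa1 had 0 counts in all libraries and Nox3 had 1 count in 1 library.

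Of 18 genes of oxidase assembly and regulation, 4 were higher and 0 lower in AL + NaIO3 than in AL + PBS at an unadjusted p under 0.05 by edgeR (median log2 fold change 0.59), and 7 were lower and 0 higher in IF + NaIO3 than in AL + NaIO3 (median -0.63). Vav1, the exchange factor that loads Rac2 in blood cells, differed most, at 3.57 ± 0.79 and -2.78 ± 0.74 (2.38 and -1.59 without AL + NaIO3 replicate 3). Over all genes tested, 10.2% and 11.7% reached that p, with medians of 0.01 and -0.01. Cybc1, the chaperone of gp91phox, was between 17.7 and 27.1 CPM throughout, with a log2 fold change of -0.01 in AL + NaIO3 against AL + PBS. Of 15 receptors and kinases that trigger the oxidase, 14 were in the table, and all 14 were higher after NaIO3 on AL and lower in IF + NaIO3 than in AL + NaIO3 at that p (medians 2.26 and -2.43). Itgb2, the shared chain of the leukocyte integrins, was the furthest in the first comparison, at 3.34 ± 0.76, and was at -3.13 ± 0.69 in the second (2.08 and -1.88 without that library). None of these genes was called by edgeR on 6 libraries, and 5 of the 14 receptors and kinases in the first comparison and 8 in the second were called in the 12-library fit, beside 1.11% and 1.19% of genes. Without AL + NaIO3 replicate 3, 12 of the 14 were at that p in each comparison (medians 1.44 and -1.74), and of the 18 assembly genes 2 and 3 were (medians 0.07 and -0.14).

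Of 7 transcription factors of phagocyte oxidase genes, 6 were tested. At an unadjusted p under 0.05 by edgeR 5 were higher in AL + NaIO3 than in AL + PBS (median 1.78) and 6 lower in IF + NaIO3 than in AL + NaIO3 (median -1.86). Spi1, which encodes PU.1, was at 2.47 ± 0.67 and -2.41 ± 0.51 (2.02 and -1.96 without AL + NaIO3 replicate 3). Among 14 enzymes that remove superoxide and peroxide, 5 were higher and 0 lower in the first comparison (median 0.27) and 4 lower in the second (median -0.20), with the secreted peroxidase Gpx3 furthest at 1.51 ± 0.47 and -2.03 ± 0.47 (0.64 and -1.17 without that library, the latter with an edgeR adjusted p of 0.0104). These counts stand beside the same 10.2% and 11.7% of all genes. Among 10 enzymes that supply NADPH, 0 reached that p in either comparison (medians 0.01 and 0.01), and the transhydrogenase Nnt was furthest at 0.89 ± 0.57 (0.98 without that library).

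Because the AL + NaIO3 libraries lay apart from the rest, no pooled correlation with Cybb is read as a test, and the members were correlated with it over the other 9 libraries, in log2 CPM. With Rac2 Pearson's r was 0.68 (permutation p = 0.0664, adjusted over 5 pairs 0.332) and Spearman's rho 0.60 (p = 0.0977), and r was 0.21 without AL + PBS replicate 3 and IF + PBS replicate 3, so it rests on these libraries. The r of Ncf1 was 0.39, of Ncf4 -0.14, of Nox4 -0.20 and of Cyba -0.53 (permutation p = 0.135). The 9 libraries come from different groups, which the permutation did not keep apart, so differences between groups enter each r. Cybb and Rac2, for example, both had their lowest mean in IF + PBS. None of the 5 pairs with Cybb passed the adjusted test in these 9 libraries, and pairs without Cybb were not tested.

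The genes with the closest pattern over all 12 libraries were ranked among 15961 genes by Pearson's r of log2 CPM, a description of libraries that share tissue dissection and depth. For Cybb they were Slc6a2 (r = 0.96), Agtpbp1 (0.96) and Cyfip1 (0.95), with Rac2 at rank 12, Ncf1 at 46, Cyba at 771, Ncf4 at 3158 and Nox4 at 4579. For Cyba they were Fcer1g (0.98), Ctsz (0.97) and Clu (0.96), and for Ncf1 Vcam1 (0.99), Itih5 (0.98) and Adgre1 (0.97). Ncf4 was nearest to 2610001J05Rik (0.96), Arf4 (0.94) and Cd22 (0.92), Rac2 to Ifi204, Cd24a and Cyth4 (0.97 each). For Nox4 they were Steap1 (0.94), Cldn2 (0.92) and Timeless (0.90), and no other member was nearer than rank 3356. All these r include the AL + NaIO3 libraries, which lay apart from the rest. That of Cybb with Cyba, for example, was 0.79 over 12 libraries and 0.05 without AL + NaIO3 replicates 3 and 1.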

How the data were processed

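RNA-seq was done on 12 libraries, 3 mice in each of 4 groups, and each was assigned from its label. The authors poly-A selected the RNA and sequenced 150-bp reads, called single-end in the methods and paired-end in the labels. The submitters' processing notes name HISAT2, StringTie, DESeq2, edgeR and GRCm39, with no role given. Of 21217 genes matched by symbol, 99.9% overlapped their GRCm38.p6 RefSeq position, while 16.4% of 21689 overlapped their GRCm39 position, so coordinates were read as GRCm38. The authors deposited a table of counts, whole reads per gene without normalization, and of FPKM values, which they made by dividing by gene length and depth. The use of strand in counting is not given in the sources used here. The deposited table of the authors' own fold changes and p-values was not used. The number of per-sample columns without a sample was 0.

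The counts were scaled by TMM factors (0.935 to 1.12) and tested with edgeR 4.0.16 (limma 3.58.1, R 4.3.3) by the quasi-likelihood test after filterByExpr, on the 6 libraries of each pair of groups or all 12 for the interaction. All 6 members passed the filter in each fit. Benjamini-Hochberg adjustment was over all genes tested, and a call needs an adjusted p under 0.05 and a fold of at least 1.5 (interaction: adjusted p only). The SE was taken from the estimate and its F statistic. CPM are TMM scaled, and log2 CPM have a prior count of 2. The p-values rest on the spread between 3 mice a group. The steps were tested on simulated data. For 36 symbols listed more than once, lists took the entry with the higher total.

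The members, 14 lists of 166 genes (165 in the table), tests and alternatives were chosen with earlier results of these data known. Named are the members, the 3 genes most like each, the further subunits that passed the filter (1 is not reported here), and the gene of each list with the largest difference in AL + NaIO3 against AL + PBS. Noxa1, Nox3, Cybc1, S100a9, Rgr, Rpe65, Rdh5 and the markers at 0 were named after their values were seen. Alternatives were median-ratio size factors, DESeq2 1.42.0, no filter, the replicate block, 12 libraries fitted together and leaving out each library.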

Additional observations from a re-analysis of the deposited data

Results flagged for a closer look

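Cyba, the membrane partner of Cybb and Nox4, was looked at again because NaIO3 and PBS libraries were ordered in opposite ways on the diets. On AL all 3 NaIO3 libraries were above all 3 PBS libraries (log2 fold change 1.63), and on IF all 3 were below (-0.59). Groups were apart in these directions for 9.8% of genes on AL (higher) and 10.7% on IF (lower). The test of the difference gave -2.21 on the log2 scale, with an adjusted p of 0.182 by edgeR over 12 libraries, and an adjusted p of 0.00380 by DESeq2. With single libraries left out the edgeR adjusted p ran from 0.0389 to 0.474. The second look was prompted by the same libraries that this test uses. Groups of 3 libraries were not searched for single outlying values.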

How the results depend on the processing

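The number of members called depended on the test. It was 0 by edgeR on 6 libraries in each comparison. In AL + NaIO3 against AL + PBS it was 3 by DESeq2 and 1 with 12 libraries fitted together, and 0 whichever library was left out. In IF + NaIO3 against AL + NaIO3 it was 4 by DESeq2 and 3 with 12 libraries, and between 0 and 1 with a library left out (1, Cybb, without AL + NaIO3 replicate 3). In the interaction it was 1 by DESeq2, and between 0 and 1 (1, Cyba, without AL + NaIO3 replicate 1). The cause was not tested.

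Over all genes, AL + NaIO3 against AL + PBS gave 12 calls by edgeR, 446 by DESeq2, 19 without the filter, 177 with 12 libraries and 0 to 90 with a library left out (90 without AL + NaIO3 replicate 3). IF + NaIO3 against AL + NaIO3 gave 6, 500, 16, 190 and 0 to 75. IF + PBS against AL + PBS gave 0 by edgeR, 164 by DESeq2 and 1 to 472 with a library left out (472 without IF + PBS replicate 1). IF + NaIO3 against IF + PBS gave 0, 79, and 0 to 197, and 2 without the filter. The interaction gave 5, 212 by DESeq2, 13 without the filter and 3 to 366 (366 without AL + NaIO3 replicate 1). With the replicate block the calls were 28 in AL + NaIO3 against AL + PBS, 28 in IF + NaIO3 against AL + NaIO3, 5 in IF + PBS against AL + PBS and 8 in the interaction, and 0 members in each. The numbers do not pair the mice: samples with the same number correlated between -0.0999 and 0.137.

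Directions turned with a library left out for Nox4 in IF + NaIO3 against AL + NaIO3 (-1.68 to 0.29), in the interaction (-1.64 to 0.34) and in IF + PBS against AL + PBS (-0.32 to 0.20). They turned for Ncf4 in IF + PBS against AL + PBS (-0.52 to 1.26) and in IF + NaIO3 against IF + PBS (-0.21 to 1.56), and for Cybb relative to macrophage markers, AL + NaIO3 minus AL + PBS (-0.079 to 0.66). Among the genes named from lists, Pmel (-0.83), Lum (-0.50) and Nox1 (-0.15) turned in AL + NaIO3 against AL + PBS without AL + NaIO3 replicate 3. Ncf4 relative to macrophage markers, AL + NaIO3 minus AL + PBS, ran from -0.23 to 1.31 with a library left out. These alternatives were added after seeing the data. Over the 9 libraries outside AL + NaIO3, a choice made after seeing the data, the correlation with Cybb was below 0 for Cyba (-0.53), Ncf4 (-0.14) and Nox4 (-0.20), and above 0 over 12. Depth limits Ncf4 and Nox4, at 0 to 41 counts in 11 of 12 libraries, and also Rac2, at 4 to 30 counts outside AL + NaIO3.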
